A study of Mus musculus with 4 samples.

Results

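The genes described here are 30 genes of cholesterol synthesis and of the SREBP pathway, chosen by name from the 32285 genes of the count table. They comprise 7 enzymes from acetyl-CoA to farnesyl diphosphate (the mevalonate arm), 11 enzymes from squalene to cholesterol (the sterol arm), 5 genes of the SREBP factors and their sterol-sensing partners, 1 sterol carrier gene and 6 genes of fatty acid synthesis and desaturation. All 30 were found in the table and all passed the filter on low counts. They were measured by RNA sequencing in 4 libraries of wild-type GS cells, spermatogonia grown in culture from the testis of 10-day-old mice. A pair of libraries came from the C57BL/6 strain (B6; the titles also carry the mark F0, which the labels do not explain) and a pair from strain 129. The labels name no treatment and do not say how many animals or cultures each line came from, so the p-values below rest on a spread between libraries that may be only technical.

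Cells build cholesterol from acetyl-CoA through mevalonate, isoprenoid diphosphates, squalene and lanosterol, in the endoplasmic reticulum. The genes of this route, and many of fatty acid synthesis, are switched on by the SREBP transcription factors, which are made as membrane proteins. When sterols are scarce, the escort protein SCAP carries them to the Golgi, where proteases release the active factor. When sterols are plentiful, INSIG proteins hold SCAP and SREBP back. Insig1 is itself a target of SREBP. In the testis, cholesterol is a membrane component of germ cells and the precursor of steroid hormones in Leydig cells.

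The question the design poses is how expression differs between the strains. Of the 30 genes, Insig1 was lower and Scd1 higher in 129 by the quasi-likelihood test of edgeR (Benjamini-Hochberg adjusted over all genes tested, threshold 0.05), and 28 did not pass. That is 6.67% of the members, where 2.86% of the 16005 genes tested were called (1.84% higher and 1.02% lower). Insig1 encodes the sterol-sensing anchor of SREBP, and Scd1 a stearoyl-CoA desaturase, which makes monounsaturated fatty acids. Among the 18 mevalonate and sterol enzymes, 13 had a log2 fold change (129 over B6) below 0, where 7863 of the 16005 genes tested did. None of the 18 passed in edgeR. At an unadjusted edgeR p under 0.05 stood 2 of them (11.1%), both above 0, where 28.1% of all genes tested did. DESeq2 called 1 of the 18, Ebp, higher, where it called 9.63% of all genes higher. The median over all 30 genes was -0.18, beside 0.015 over all genes tested.

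Libraries held 20375086 to 25374801 counts, and the members took 0.378% to 0.455% of them. Levels are given as CPM, counts scaled to library size with TMM factors, and as mean ± SD over n = 2 libraries. The defining germ cell genes were present: Dazl stood at 1052 and 1010 CPM in B6 and at 635 and 832 CPM in 129, and Ddx4 at 276 to 517 CPM. The 10 germ cell markers did not move as one between the strains. Etv5, a transcription factor of spermatogonial self-renewal, rose in 129 (1.64, edgeR adjusted p = 0.032), Gfra1, a GDNF receptor gene, was at 0.61 without passing, and Nanos2, an RNA-binding factor of spermatogonial stem cells, was at -2.13 (edgeR adjusted p = 0.067, DESeq2 adjusted p = 0.0013). By libraries, 6 of the markers were lower in both 129 libraries, 1 was higher and 3 overlapped. Of all genes tested, 29.2% had both 129 libraries below both of B6 and 31.0% had them above.

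The libraries also held fibroblast markers, whose summed level over 12 genes was 5947 and 3997 CPM in B6 and 6811 and 2833 CPM in 129. Fn1, a matrix gene, gave 4067 CPM of the sum in 129 replicate 1. Between the strains 7 of the 12 were apart lower in 129 and 3 apart higher, where 29.2% and 31.0% of all genes tested were. Among them, the collagen gene Col3a1 was at -1.86 and the matrix gene Postn at -2.22, neither passing in edgeR. Pdgfra rose (1.88, edgeR adjusted p = 0.044). Within 129, replicate 1 was below replicate 2 for 10 of 10 germ cell markers and above it for 11 of 12 fibroblast markers. In bulk RNA, fewer cells of a type and less RNA per cell cannot be told apart.

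Promoter sequences were available for 24 of the 30 genes (RefSeq, build GRCm38.p6, the C57BL/6J reference), as windows of 300 bases from 250 before to 50 after each start site. Motifs were searched on both strands, with overlapping matches allowed: TCACNCCAC, the core of a sterol response element bound by SREBP; CCAAT, bound by NF-Y; and GGGCGG, bound by Sp1, these last being factors that act with SREBP. The core TCACNCCAC was found for 1 of the 24 genes (4.17%), Hmgcs1, where 1.37% of 12251 tested genes with a promoter had it. It stood in 1.24% of all 32851 promoter windows. Only exact matches inside these windows were counted, so variant or more distant elements would be missed. CCAAT was found for 20 of the 24 genes (83.3%), where 43.0% of 12251 tested genes with a promoter had it, and in 65.6% of the members' 32 windows against 37.4% of all windows. GGGCGG was also found for 20 of the 24 genes, where 65.8% of tested genes had it. Upstream stretches are shown for Insig1, which fell, Hmgcs1, which has a sterol response core, and Ebp, the sterol arm gene with the largest positive difference. Also shown is that of Mvd, a mevalonate arm gene with a small difference that did not pass (-0.18), although its strains were apart. Each stretch ends before the annotated transcript, and capitals mark CCAAT or its reverse complement and, in Hmgcs1, the sterol response core.
Insig1, chr5:28071162-28071362, plus strand: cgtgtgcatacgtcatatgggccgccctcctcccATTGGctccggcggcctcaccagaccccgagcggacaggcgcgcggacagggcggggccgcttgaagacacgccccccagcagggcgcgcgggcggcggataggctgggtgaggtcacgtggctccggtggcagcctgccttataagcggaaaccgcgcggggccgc
Hmgcs1, chr13:119690101-119690350, plus strand: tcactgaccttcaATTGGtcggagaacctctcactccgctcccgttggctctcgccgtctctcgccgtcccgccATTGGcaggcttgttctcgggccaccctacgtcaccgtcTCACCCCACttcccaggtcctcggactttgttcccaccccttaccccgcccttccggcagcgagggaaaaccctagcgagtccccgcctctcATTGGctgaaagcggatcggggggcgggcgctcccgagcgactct
Mvd, chr8:122443423-122443672, minus strand: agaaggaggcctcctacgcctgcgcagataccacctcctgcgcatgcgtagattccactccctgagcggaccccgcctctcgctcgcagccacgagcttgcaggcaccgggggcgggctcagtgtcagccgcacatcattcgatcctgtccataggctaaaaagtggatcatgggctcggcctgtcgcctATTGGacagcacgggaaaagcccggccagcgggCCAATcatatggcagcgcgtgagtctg
Ebp, chrX:8193513-8193762, minus strand: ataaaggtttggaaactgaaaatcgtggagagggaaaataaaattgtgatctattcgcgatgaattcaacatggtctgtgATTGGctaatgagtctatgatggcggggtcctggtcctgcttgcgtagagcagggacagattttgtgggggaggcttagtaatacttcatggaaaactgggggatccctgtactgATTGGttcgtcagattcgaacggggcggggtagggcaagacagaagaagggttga

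All of the printed stretches held CCAAT, as did 83.3% of the members with a promoter. Its presence in them therefore says nothing about the direction of a strain difference. In Insig1 the match lay 216 to 212 bases before the start site, in Hmgcs1 the sterol response core lay 137 to 129 bases before it, and in Ebp the matches lay 170 to 166 and 55 to 51 bases before it. A match is a stretch of letters and not a measured binding site. Sequence of strain 129 was not analysed here.

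Insig1 (chr5:28071363-28078662, plus strand) was the member that fell. The B6 libraries gave 255 and 231 CPM and the 129 libraries 81.6 and 111 CPM. Both 129 libraries lay far below both B6 libraries, at 0.336 and 0.457 of the B6 mean. The log2 fold change was -1.34 (SE 0.22, edgeR adjusted p = 0.038), a level 2.52-fold higher in B6. Replicate 1 of 129 was the lowest library, a log2 ratio of -0.44 to replicate 2. The call ended without B6 replicate 1 (-1.27, edgeR adjusted p = 0.18), without B6 replicate 2 (-1.45, adjusted p = 0.11) and without 129 replicate 1 (-1.13, adjusted p = 0.19), settings in which at most 13 of all genes were called.

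Insig2, the paralogue that also retains SCAP, had no such difference. It was at 24.0 and 24.2 CPM in B6 and at 37.6 and 26.1 CPM in 129, a log2 fold change of 0.41 (SE 0.30, adjusted p = 0.42 in edgeR). Because the genes differ in length, they are compared as CPM per kb of exon. On that scale Insig1 exceeded Insig2 by 11.96 and 10.7 times in the B6 libraries and by 2.44 and 4.77 times in the 129 libraries. Insig1 to Scap ratios per length were 3.01 and 2.72 in B6 and 0.892 and 1.23 in 129.

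Scap and the SREBP genes themselves had small positive differences that did not pass. Scap, the escort, had the smallest difference of all members: 204 and 204 CPM in B6 against 220.2 and 218 CPM in 129 (log2 fold change 0.10, SE 0.17). Srebf2, whose product mainly drives cholesterol genes, stood at 537 and 525 CPM in B6 and at 574 and 749.8 CPM in 129 (0.32, SE 0.19, edgeR adjusted p = 0.32). Srebf1, whose product mainly drives fatty acid genes, stood at 137 and 151 CPM in B6 and at 187 and 189.8 CPM in 129 (0.39, SE 0.18, edgeR adjusted p = 0.21). For each of these genes both 129 libraries lay above both B6 libraries, as they did for 31.0% of all genes tested. Per kb of exon Srebf1 was at 0.326 and 0.366 of Srebf2 in B6 and at 0.415 and 0.323 of it in 129, so that the strains overlapped in this ratio.

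**Figure D1:**
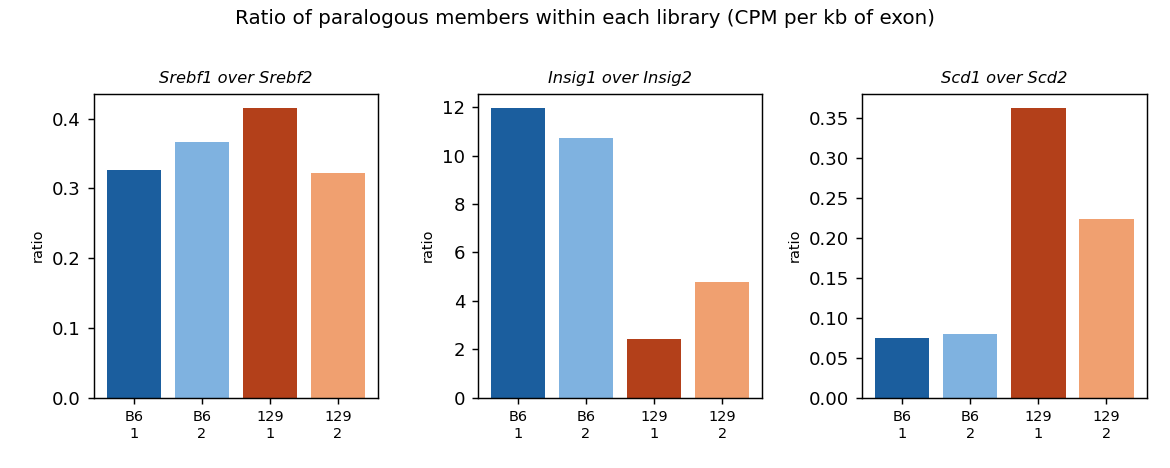
Bars give, for each of the 4 libraries, the ratio of a pair of paralogous genes in CPM per kb of exon, on axes that start at 0. Insig1 to Insig2 is 10.7 or more in both B6 libraries and 4.77 or less in both 129 libraries, Scd1 to Scd2 is higher in 129, and Srebf1 to Srebf2 overlaps between the strains.

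In the mevalonate arm, 5 of 7 genes had both 129 libraries below both B6 libraries and 0 had them above, and none passed in edgeR, DESeq2 or limma-voom, with 0 at an unadjusted edgeR p under 0.05. Over all genes tested, 29.2% had the 129 libraries below and 31.0% above. The arm's median log2 fold change was -0.33. Hmgcs1, which makes HMG-CoA and is the most abundant gene of the arm, stood at 272 and 243 CPM in B6 and at 159 and 229 CPM in 129 (-0.41, SE 0.22, edgeR adjusted p = 0.29). Its 129 replicate 2 came close to the B6 libraries, and its 129 replicate 1 did not. Idi1, the isomerase of isopentenyl diphosphate, had the largest negative difference of the arm, at 12.4 and 11.04 CPM in B6 and at 6.28 and 6.40 CPM in 129 (-0.89, SE 0.38, edgeR adjusted p = 0.18).

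Acat2, the thiolase that joins acetyl-CoA units, was at 48.6 and 45.9 CPM in B6 and at 34.8 and 36.9 CPM in 129 (-0.40, SE 0.23). Fdps, farnesyl diphosphate synthase, was at 111 and 120.0 CPM in B6 and at 78.2 and 105 CPM in 129 (-0.33, SE 0.22). Mvd, the decarboxylase of the arm, differed little, at 33.3 and 35.4 CPM in B6 and at 27.6 and 33.0 CPM in 129 (-0.18, SE 0.26). The kinase genes Mvk (0.21, SE 0.37) and Pmvk (0.15, SE 0.40) were low in every library, at 6.91 to 15.1 CPM, and their strains overlapped. Acat2, Idi1 and Fdps share 33.7%, 16.7% and 23.4% of the read-length windows of their transcripts with other annotated genes, chiefly Acat3, Gm13502 and Gm43738, so their counts depend on how shared reads were handled.

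**Figure D2:**
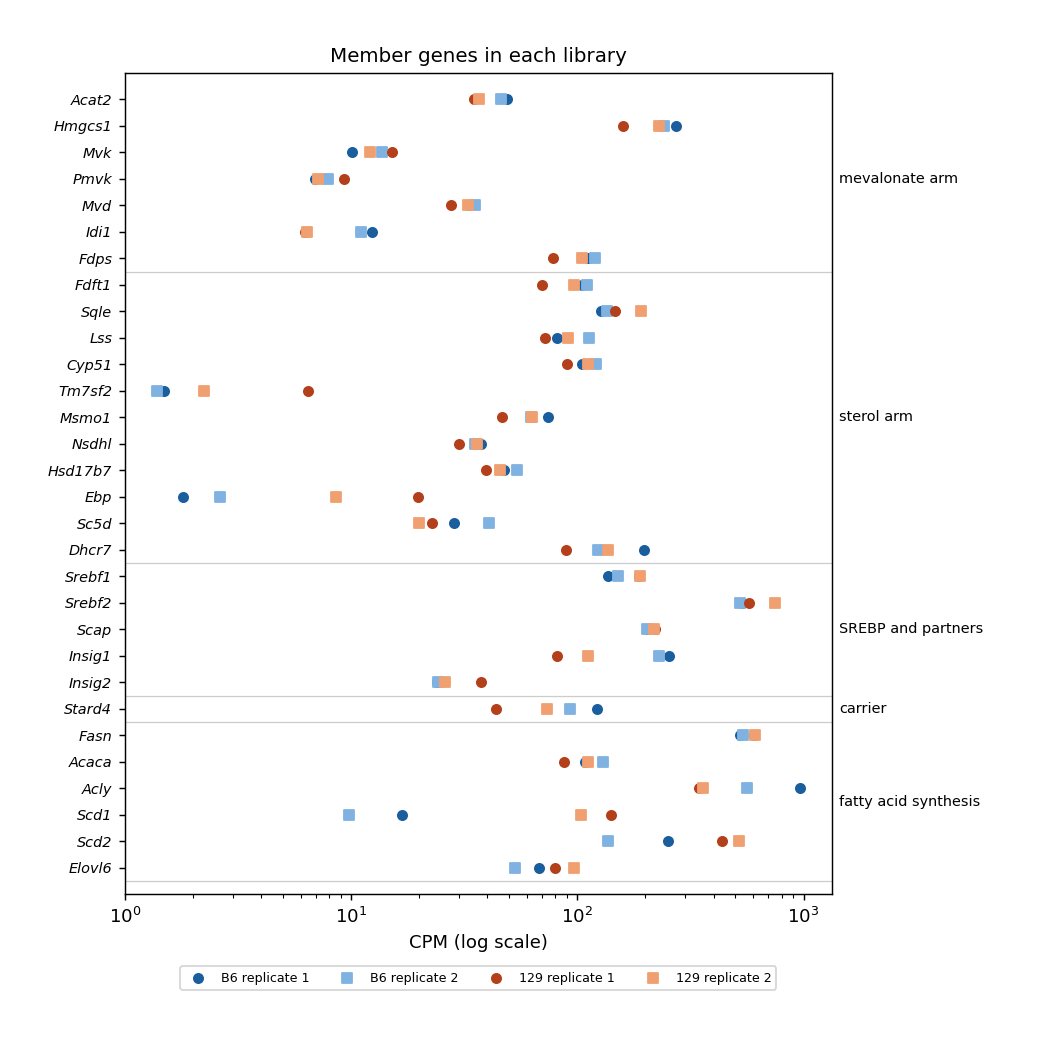
Points give CPM on a log axis for each of the 30 genes in each library (blue: B6, red and orange: 129; circles: replicate 1, squares: replicate 2), grouped by role. Scd1, Ebp and Insig1 show wide gaps between the strains, while for many mevalonate and sterol enzymes the points lie close together with 129 replicate 1 lowest.

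The sterol arm had no gene that passed in edgeR either. Of its 11 genes, 8 had a log2 fold change below 0, 3 had both 129 libraries below both of B6, 3 had them above, and the median was -0.25. Thus 27.3% were apart lower, where 29.2% of all genes tested were. In either direction 54.5% were apart, where 60.1% of all genes tested were. Fdft1, squalene synthase, stood at 105 and 111 CPM in B6 and at 70.05 and 96.3 CPM in 129 (-0.38, SE 0.22); 18.3% of its exon bases lie opposite Ctsb, which has more counts, so reads of both could be mixed if strand was not used. Sqle, squalene epoxidase, went the other way, at 127 and 136 CPM in B6 and at 146 and 191 CPM in 129 (0.36, SE 0.20, edgeR adjusted p = 0.30). So the neighbouring steps of squalene formation and squalene oxidation had differences of opposite sign, neither of which passed.

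Lss, lanosterol synthase (-0.25, SE 0.24), and Cyp51, the lanosterol demethylase (-0.17, SE 0.21), had strains that overlapped. Cyp51 was at 105 and 121 CPM in B6 and at 90.1 and 111 CPM in 129. Msmo1 (-0.33, SE 0.24) and Nsdhl (-0.15, SE 0.25), which remove methyl groups from the sterol ring, overlapped as well, and Hsd17b7, the reductase of that step, was at -0.25 (SE 0.23). These genes had mean levels between those of Nsdhl and Cyp51, and in each of them 129 replicate 1 was the lowest of the 4 libraries.

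The last steps of the arm varied more. Sc5d, the sterol desaturase, stood at 28.6 and 40.8 CPM in B6 and at 22.8 and 19.9 CPM in 129 (-0.70, SE 0.30, edgeR adjusted p = 0.19), with the strains apart. Dhcr7, which reduces 7-dehydrocholesterol to cholesterol, stood at 197 and 123 CPM in B6 and at 88.9 and 137 CPM in 129 (-0.50, SE 0.30, edgeR adjusted p = 0.33). Its libraries differed more within each strain than between them, by a log2 ratio of replicate 1 to replicate 2 of 0.67 in B6 and -0.62 in 129.

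Ebp and Tm7sf2 had the lowest B6 levels per kb of exon in the sterol arm and its largest positive differences. Ebp (chrX:8185329-8193512, minus strand), the sterol isomerase, was at 1.81 and 2.62 CPM in B6 and at 19.8 and 8.53 CPM in 129. Its 129 libraries were 8.94 and 3.85 times the B6 mean (log2 fold change 2.69, SE 0.58), just short of the threshold in edgeR (adjusted p = 0.055). It passed in DESeq2 (2.67, adjusted p = 9.9e-05), and in edgeR with upper-quartile factors (adjusted p = 0.042), with library totals (adjusted p = 0.039) and without 129 replicate 2 (3.17, adjusted p = 0.032), and its adjusted p over all alternatives ranged from 9.9e-05 to 0.28. Tm7sf2, a sterol reductase, was at 1.49 and 1.39 CPM in B6 and at 6.47 and 2.23 CPM in 129 (1.59, SE 0.65, edgeR adjusted p = 0.17), and at 0.63 without 129 replicate 1.

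Per kb of exon, Ebp was at 0.959 ± 0.250 CPM in B6 and at 6.13 ± 3.45 CPM in 129, and Tm7sf2 at 0.326 ± 0.0161 and 0.988 ± 0.682 CPM. Every other enzyme of the sterol arm had a mean of 4.38 CPM per kb or more in each strain. Tm7sf2 shares 12.1% of its exon bases with Vps51 on the same strand, which has more counts. Both genes were higher in 129 replicate 1 than in replicate 2, by 2.32 and 2.90 times, whereas 13 of the other 16 mevalonate and sterol enzymes were lower there. Fibroblast markers were likewise higher in that replicate for 11 of 12 genes, with a summed level of 6811 against 2833 CPM. In B6, where Ebp and Tm7sf2 were low in both libraries, the fibroblast sum was 5947 and 3997 CPM. The 5 adipocyte markers summed to 38.5 and 9.25 CPM in the 129 libraries and to 3.62 and 3.71 CPM in B6. Most of the 129 sum came from Fabp4, at 27.9 and 6.16 CPM, and Plin1, at 8.60 and 0.806 CPM. The other markers did not share this rise. Adipoq was at 1.45 and 1.80 CPM in 129 and at 0.321 and 1.63 CPM in B6. Cidec was at 0.531 and 0.474 CPM in 129 and at 0.522 and 0.248 CPM in B6. Both overlapped between the strains, and Lep was at 0 in 129. The part of these markers in the Ebp and Tm7sf2 values was not tested.

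**Figure D3:**
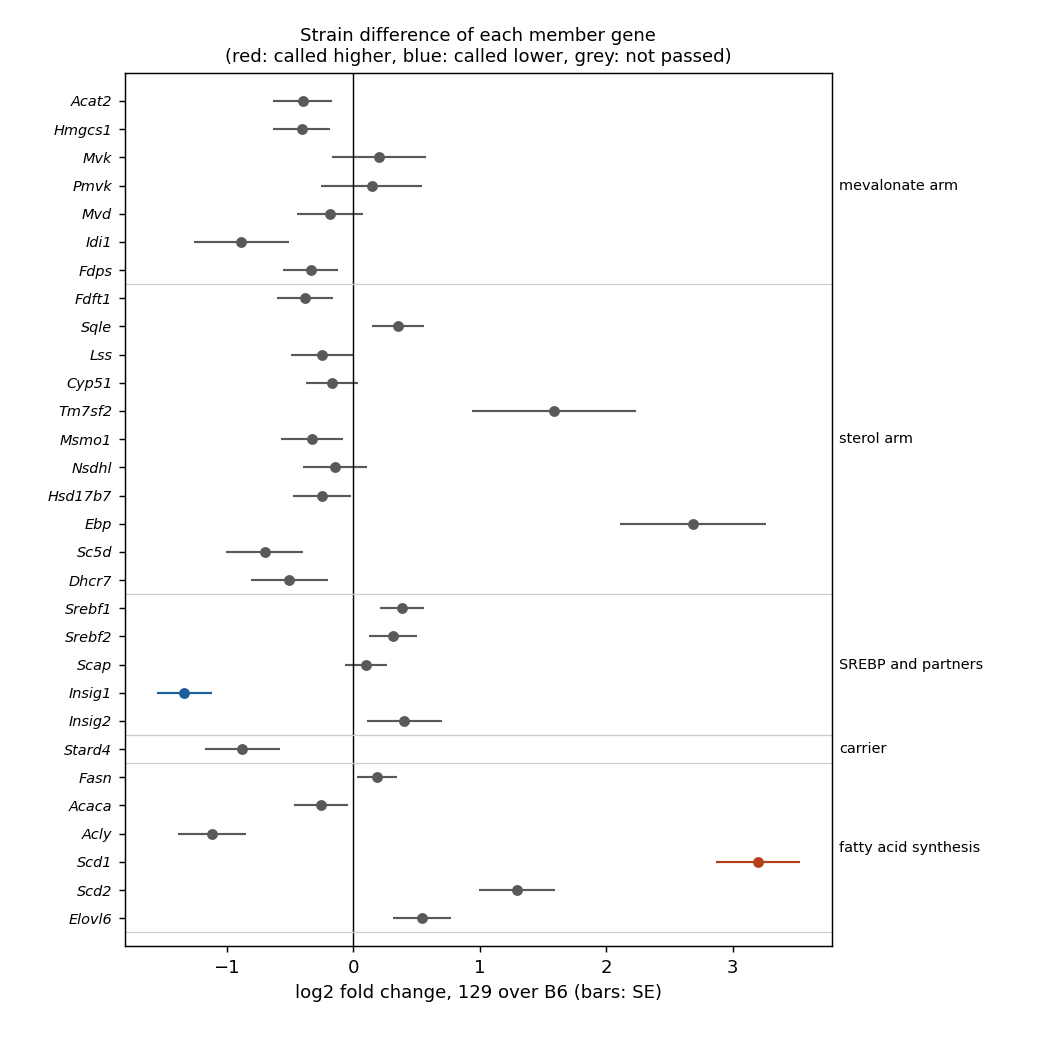
Points give the log2 fold change of 129 over B6 with its SE for each of the 30 genes by role. Insig1 (blue, -1.34) and Scd1 (red, 3.20) are the called genes, Ebp (2.69) is the highest of those that did not pass, and most mevalonate and sterol enzymes lie between -0.89 and 0.36.

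Summed over the 18 mevalonate and sterol enzymes, the libraries held 1302 and 1277 CPM in B6 and 962 and 1231 CPM in 129. The 10 germ cell markers summed to 2659 and 2811 CPM in B6 and to 1984 and 2562 CPM in 129, so both sums were lowest in 129 replicate 1. As a share of the germ cell marker sum, the enzymes stood at 48.9% and 45.4% in B6 and at 48.5% and 48.1% in 129. These shares overlapped between the strains, and the log2 ratio of their means was 0.033. Within B6 the sums went opposite ways from one library to the other, so that their likeness rests on 129 replicate 1. This scaling was chosen after the values were seen, and the marker sum holds much Dazl and also Etv5, which rose.

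The marker sum was itself at -0.27 (log2, 129 over B6), so dividing by it moves every gene up by about that much and is no separate evidence for any of them. Insig1 was at 9.61% and 8.21% of the germ cell marker sum in B6 and at 4.12% and 4.33% in 129, a log2 ratio of -1.08. Sqle was at 4.79% and 4.83% in B6 and at 7.36% and 7.45% in 129. The part of cell composition in the values of Insig1 and of the enzymes was not tested.

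**Figure D4:**
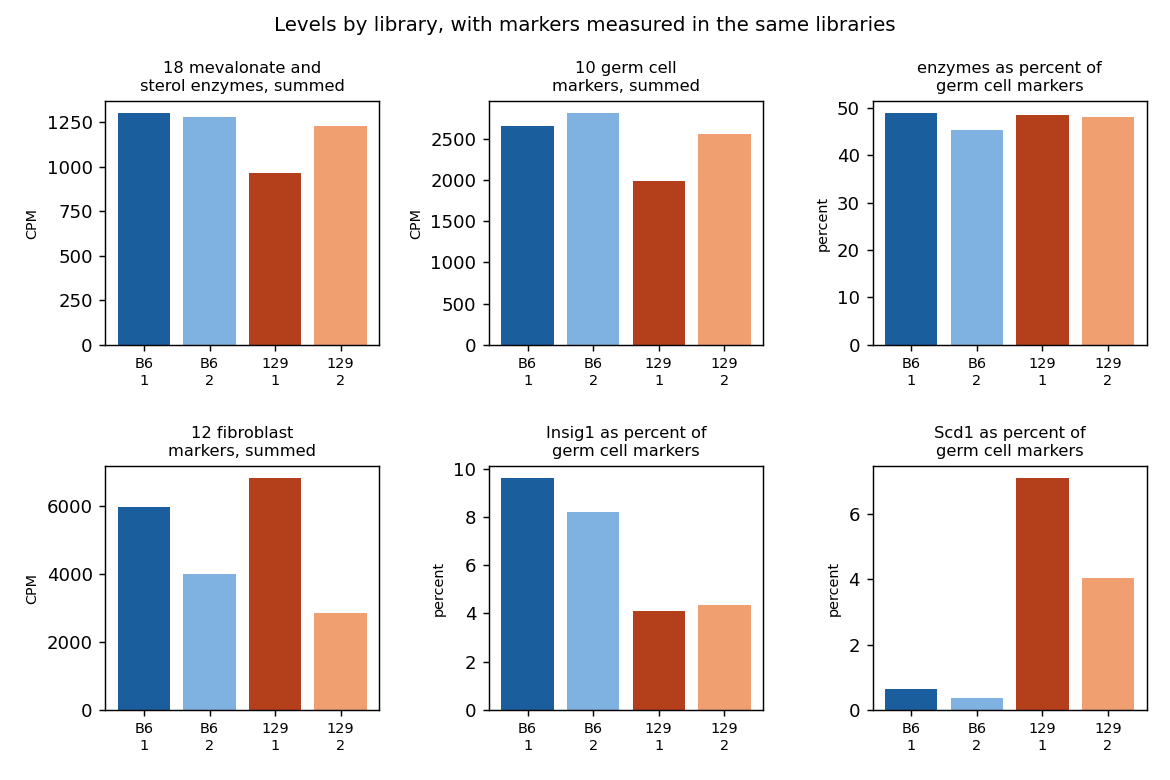
Bars give summed CPM, or a level as a percent of the summed germ cell markers, for each library, on axes that start at 0. The 18 enzymes and the germ cell markers are both lowest in 129 replicate 1 and their ratio is 45.4% to 48.9% in every library, while Insig1 is lower and Scd1 higher in both 129 libraries as a percent of the same markers.

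Stard4, which carries cholesterol between membranes inside the cell, was at 122 and 92.6 CPM in B6 and at 43.8 and 73.4 CPM in 129. All of its 129 values lay below those of B6 (log2 fold change -0.88, SE 0.30, edgeR adjusted p = 0.12). The difference did not pass and was -0.55 without 129 replicate 1 and -1.30 without 129 replicate 2.

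The genes of fatty acid synthesis and desaturation went in both directions. Scd1 (chr19:44394455-44407879, minus strand) rose from 16.8 and 9.75 CPM in B6 to 141 and 104 CPM in 129. Its 129 libraries were 10.6 and 7.81 times the B6 mean (log2 fold change 3.20, SE 0.33, edgeR adjusted p = 0.029). The call ended without B6 replicate 1 (3.64, edgeR adjusted p = 0.12), without B6 replicate 2 (2.82, adjusted p = 0.092) and without 129 replicate 1 (2.96, adjusted p = 0.11), the settings in which few genes of the whole table passed. Scd1 was the member with the largest difference, and both 129 libraries lay far above both of B6.

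Scd2 (chr19:44293674-44306864, plus strand), the neighbouring desaturase gene, was at 252 and 137 CPM in B6 and at 435 and 518 CPM in 129. Both 129 libraries lay above both of B6 (1.29, SE 0.30), short of the threshold in edgeR (adjusted p = 0.062) and past it in DESeq2 (adjusted p = 0.0054) and in edgeR with library totals (adjusted p = 0.048). Per kb of exon, Scd1 was at 0.0743 and 0.0798 of Scd2 in the B6 libraries and at 0.362 and 0.223 of it in the 129 libraries. Scd1 shares 3.13% and Scd2 1.74% of its read-length windows, as exact matches, with other annotated genes. Confusion of reads from similar but unequal stretches was not tested. B6 replicate 1 exceeded replicate 2 in both, by log2 ratios of 0.78 and 0.88.

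Acly, ATP citrate lyase, which supplies cytosolic acetyl-CoA to both routes, had the opposite difference. It was at 963 and 560.4 CPM in B6 and at 344 and 359 CPM in 129 (-1.12, SE 0.27). It did not pass in edgeR (adjusted p = 0.064) and passed in DESeq2 (-1.13, adjusted p = 0.0088). The 129 libraries were close together, and B6 replicate 1 was 1.72 times replicate 2. The difference was -0.68 without B6 replicate 1 and -1.499 without B6 replicate 2.

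The carboxylase and the synthase that follow Acly in the route showed little difference. Acaca, acetyl-CoA carboxylase, was at 108 and 129.6 CPM in B6 and at 87.7 and 111 CPM in 129 (-0.25, SE 0.21), with overlapping strains and 26.6% of its windows shared with other annotated genes. Fasn, fatty acid synthase, was at 524 and 542 CPM in B6 and at 604 and 611 CPM in 129 (0.19, SE 0.16). Elovl6, which elongates palmitate, was at 67.9 and 53.0 CPM in B6 and at 80.1 and 96.3 CPM in 129 (0.54, SE 0.23, edgeR adjusted p = 0.18). In edgeR at an unadjusted p under 0.05 stood 4 of the 6 genes of this group and 8 of all 30 members (26.7%), where 28.1% of all genes tested did.

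Across all 30 members, 11 had both 129 libraries above and 11 below both of B6, and 8 overlapped. Together 73.3% had the strains apart, where 60.1% of all genes tested had. DESeq2 called 3 members higher (Scd1, Scd2 and Ebp) and 2 lower (Insig1 and Acly), which is 5 of 30 where it called 15.3% of all genes (9.63% higher and 5.70% lower). By limma-voom, Scd1 and Insig1 passed, where 1.54% of all genes did. Both members called by edgeR were also called with the replicate block.

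Other genes of lipid metabolism were described from lists that hold none of the members. In the list of other fatty acid synthesis, elongation and desaturation genes, 1 of 31 tested genes rose and 0 fell (median 0.054). It was Elovl1, an elongase of saturated and monounsaturated chains, at 18.4 and 17.4 CPM in B6 and at 57.1 and 45.9 CPM in 129, a log2 fold change of 1.52 (SE 0.27, adjusted p = 0.044 in edgeR). DESeq2 called 6 higher and 1 lower in that list, and 12 had an unadjusted edgeR p under 0.05. Over all genes tested, edgeR called 2.86%, and DESeq2 called 9.63% higher and 5.70% lower. At an unadjusted edgeR p under 0.05 stood 28.1% of all genes tested. Among 18 other sterol-responsive genes, edgeR called 0 and DESeq2 1 in each direction, with 6 at an unadjusted edgeR p under 0.05 and a median of -0.29.

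Genes that process SREBP or degrade its sensors were even between the strains. Of 16 tested, edgeR called 0 and DESeq2 2, both higher, with 2 at an unadjusted edgeR p under 0.05 (median 0.16). The shares over all genes tested were 2.86% for edgeR, 15.3% for DESeq2 and 28.1% at that unadjusted p. Mbtps1, the Golgi protease that first cuts SREBP, had 326 ± 18.96 CPM in B6 cells and 339 ± 19.0 CPM in 129 cells (0.058, SE 0.17), and Vcp, an ATPase of protein degradation, was at -0.076 (SE 0.16). In the isoprenoid branches, which lead from farnesyl diphosphate to protein prenylation, dolichol and ubiquinone, edgeR called 0 of 23 genes and DESeq2 1, lower, with 3 at an unadjusted p under 0.05 (median -0.12). Icmt, a methyltransferase of prenylated proteins, was at -0.36 (SE 0.18) and Nus1, a subunit of the dolichol synthase, at 0.34 (SE 0.23).

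Cholesterol uptake, trafficking, esterification and efflux genes also gave no edgeR call among 28 tested (DESeq2 1 in each direction, 6 at an unadjusted edgeR p under 0.05, median 0.18). Npc2, a lysosomal cholesterol carrier, had 162 ± 30.3 CPM in B6 cells and 187 ± 52.0 CPM in 129 cells (0.21, SE 0.25). Abca1, a cholesterol exporter, was at 65.6 and 147 CPM in B6 and at 177 and 274 CPM in 129 (1.09, SE 0.41, edgeR adjusted p = 0.15), with the strains apart. The lists overlap (Fads1 and Acss2, for example, stand in more than one). Counting each gene once, 109 genes of these 5 lists were tested, of which edgeR called 1 higher and DESeq2 9 higher and 3 lower. Of all genes tested, edgeR called 2.86% and DESeq2 15.3%, and 28.1% had an unadjusted edgeR p under 0.05.

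Markers of the remaining cell types were low beside the germ cell and fibroblast genes. Leydig cell markers, of a cell that uses cholesterol for steroids, summed to 4.54 to 9.44 CPM over 8 genes, with 7 of them under 1 CPM in every library, Lhcgr at 0 in B6, and Cyp17a1 and Hsd3b1 at 0 in 129. Star had 6.95 ± 1.64 CPM in B6 cells and 3.68 ± 0.290 CPM in 129 cells, and Cyp11a1 at 0.335 ± 0.264 and 0.312 ± 0.106 CPM. Sertoli cell markers summed to 33.0 and 33.9 CPM in B6 and to 296 and 162 CPM in 129, where Clu and Rhox5 made up most of them, with Fshr at 0 in 129. Endothelial markers, among them Flt1 and Eng, summed to 54.2 and 91.5 CPM in B6 and to 282 and 191 CPM in 129. Peritubular muscle markers (Acta2 and Des foremost) and macrophage markers (Cd14 and Lyz2) summed to 18.9 to 93.2 CPM in any library. The Sertoli and endothelial sums were higher in 129 as Scd1 was, and their part in the Scd1 difference was not tested.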

How the data were processed

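Libraries of 4 GS cell samples were made with a stranded mRNA kit, per the labels' protocols, and read from 1 end over 76 bases, per the series' design text. The authors deposited whole-number read counts for each gene and library. The submitters' processing notes list HISAT2 2.2.1, HTSeq 0.13.5, cutadapt 3.4, DESeq2 1.30.1, bcl2fastq 2.20 and build mm10. Not given in the sources used here: the annotation release, the strand setting and the handling of shared reads. Reads of 129 cells aligned to a C57BL/6 reference can be lost at strain variants.

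Groups and replicate numbers came from the titles. In R 4.3.3, edgeR 4.0.16 (filterByExpr, TMM, robust quasi-likelihood test, strain as the only term) was fitted to all 16005 genes that passed the filter, with Benjamini-Hochberg adjustment over them and a threshold of 0.05. Each SE was derived as the size of the log2 fold change over the root of its F statistic. No exact permutation test of 2 against 2 libraries can go below p = 0.333. The 2 libraries of each strain differed from each other beyond sampling noise.

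Positions and exon lengths came from GENCODE release M21 (99.85% of identifiers matched; the same assembly as mm10). Windows of 76 bases of the members' transcripts were compared with all other transcripts of that release. All members are named, with called or most abundant genes of the other lists; 2 genes that this rule would name are not reported here, and 1 of 17 listed symbols for SREBP processing was not matched. Members and lists were chosen with earlier results of these data known. The fit was checked on simulated counts. Alternatives were other scaling factors, filters and tests (DESeq2 1.42.0, limma 3.58.1), a replicate block and each library left out.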

Additional observations from a re-analysis of the deposited data

How the results depend on the processing

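Under the 14 other settings 28 members kept their direction. Mvk turned to -0.010 without B6 replicate 1 (up to 0.40 with a library left out) and Pmvk to -0.053 without 129 replicate 1 (up to 0.33), and neither passed in any setting. The 1 member called higher became 2 with upper-quartile factors, 3 with library totals and 3 with DESeq2, and 0 to 2 with a library left out. The 1 called lower became 2 with DESeq2, and 0 to 1 with a library left out. The median over the members was -0.18, ranged from -0.32 to -0.053 with a library left out (-0.32 without 129 replicate 2), and was 0.098 relative to the summed germ cell markers, a scaling added after the data were seen that by its construction moves every gene up by about the same amount.

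Among the genes of the other lists, 1 was called higher, and 5 with upper-quartile factors, 5 with library totals, 0 with no filter, 9 with DESeq2, 0 with limma-voom, 4 with the replicate block and 0 to 4 with a library left out. In these lists 0 were called lower, and 3 with DESeq2.

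Over all genes, 294 were higher and 163 lower. The higher and lower counts were 697 and 324 with upper-quartile factors, 746 and 306 with library totals, 165 and 95 with no filter, 182 higher with the stricter filter, 1542 and 913 with DESeq2, 149 and 97 with limma-voom, and 623 higher with the replicate block. With a library left out they were 0 to 750 and 0 to 77. The deviations of same-numbered libraries from their strain means had r = -0.019. A correlation across genes cannot show whether the numbers pair the libraries. The replicate block called 5.27% of all genes, where the main fit called 2.86%. With the replicate block Insig1 and Scd1 stayed called, and no member gained or lost a call. In fits that leave out a library, the lone library of a strain is assumed to vary like the others. Library totals shift the median of all genes to 0.060 and change no member's direction. Low counts limit Ebp, Tm7sf2, Pmvk and Idi1 most.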
